A study of Homo sapiens with 6 samples.

Results

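Collagens are the main structural proteins of the extracellular matrix, and each collagen molecule is a trimer of chains wound into a rod. Every chain gene codes for repeats in which glycine comes back after every pair of other residues, and the kinds of chain that join decide which structure forms. Fibrillar chains build banded fibres, type IV chains build the sheets of basement membranes, type VI chains build beaded filaments, FACIT chains (fibril-associated collagens with interrupted helices) sit on fibres, and transmembrane collagens stay in the cell surface. An early epithelium such as definitive endoderm (DE) rests on a basement membrane that holds type IV collagen. The collagen chain genes described here are all genes of the table whose symbol is COL, a number, A and a number. The rule found 44 of 49278 named genes, and it used no measured value.

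RNA-seq was performed on 6 libraries of HUES8 human embryonic stem cells that had undergone DE differentiation for 3 days in DMEM with 100 ng/ml Activin A and 0.2% bovine serum albumin, on plates coated with growth factor-reduced Matrigel. The wild-type (WT) cells gave 2 libraries, and 2 PDHB+/- clones, called clone #1 and clone #2, gave 2 libraries each. PDHB encodes a subunit of the pyruvate dehydrogenase complex, which turns pyruvate into acetyl-CoA. The PDHB+/- cells were made with CRISPR/Cas9 and carry the edit on 1 of the alleles, since no homozygous knockout was obtained. Each clone grew from a sorted and plated cell, so a clone's values can hold features of that clone as well as of the genotype. The labels do not say that the 2 libraries of a group came from separate cultures, so the p-values measure the spread between these libraries.

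PDHB itself, the targeted gene, had 369 and 362 TPM (the TPM unit scales reads by transcript length and to the same total in every library) in WT, 178 and 166 in clone #1 and 200 and 157 in clone #2. The PDHB+/- mean was 48.0% of the WT mean. The libraries held 11367725 to 14315641 reads on genes, inferred from the TPM values. At this depth 3 reads on a gene counted over 1000 bases corresponded to 0.522 to 0.638 TPM, and a level under 3 reads was not distinguished from 0. Such limits cover counting error only.

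The repeat that defines the family can be read from the exons. In the canonical transcripts of GENCODE release 44, the 44 genes held 2001 coding exons with a median length of 63 bases, against 124 bases over all protein-coding genes. The median collagen gene had 47 coding exons, and the median of all protein-coding genes was 7. Exons of exactly 54 bases, which is 6 repeats of 9 bases, made up 47.0% of the coding exons of fibrillar chains, 25.6% of those of FACIT chains and 4.1% of those of type IV chains. Over all protein-coding genes the share was 0.7%. The first in-frame exon of this length is shown for 3 fibrillar chains that moved in different directions, from hg38 and on the coding strand, with codons of the form GGN, which code for glycine, in capitals. They lie at chr17:50197949-50198002 (COL1A1, minus strand, exon 8), chr12:47997871-47997924 (COL2A1, minus strand, exon 6) and chr9:134753850-134753903 (COL5A1, plus strand, exon 15).
COL1A1: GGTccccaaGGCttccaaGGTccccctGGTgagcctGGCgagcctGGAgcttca
COL2A1: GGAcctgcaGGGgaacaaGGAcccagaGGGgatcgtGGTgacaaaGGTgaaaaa
COL5A1: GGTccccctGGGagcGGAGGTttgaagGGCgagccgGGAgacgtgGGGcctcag
In all 3 exons a GGN codon opened each of the 6 repeats, and COL5A1 held a further one, 7 in all. These short exons may bear on the measurement, because the authors aligned reads with bowtie2, which does not split a read over an intron. Whether reads over collagen exon junctions were left out more often than others was not tested.

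All 6 type IV chain genes lie as pairs, head to head, with their starts close together. The bases that lie between the RefSeq starts of each pair are printed, less any base of an exon in GENCODE, because the type IV chains are described by pair. The annotated spans of COL4A1 and COL4A2 overlap in GENCODE, which leaves 100 bases for that pair. The sequences are from RefSeq promoters on GRCh38.p14 and read on the plus strand, with matches to any of 3 short promoter motifs in capitals. The first motif searched was the GC box, spelled GGGCGG. Another was the CCAAT box, named for its letters. The last was the TATA box, searched as TATAAA. Each was searched on both strands. The first lies at chr13:110307158-110307257, the second at chr2:227164489-227164623 and the third, of which only the 250 bases next to COL4A5 are shown, at chrX:108439588-108439837.
COL4A1/COL4A2: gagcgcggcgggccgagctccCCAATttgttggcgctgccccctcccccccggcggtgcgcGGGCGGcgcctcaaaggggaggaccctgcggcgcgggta
COL4A4/COL4A3: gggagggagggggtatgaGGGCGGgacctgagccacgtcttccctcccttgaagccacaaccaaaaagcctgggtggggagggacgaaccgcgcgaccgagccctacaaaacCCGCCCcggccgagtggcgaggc
COL4A6/COL4A5: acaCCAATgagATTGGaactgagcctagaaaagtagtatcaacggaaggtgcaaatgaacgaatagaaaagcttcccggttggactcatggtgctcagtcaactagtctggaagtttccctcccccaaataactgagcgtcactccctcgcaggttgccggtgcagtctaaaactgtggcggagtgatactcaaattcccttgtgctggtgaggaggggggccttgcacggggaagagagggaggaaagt
RefSeq leaves 126 bases between the starts of COL4A1 and COL4A2, 135 between COL4A4 and COL4A3, and 379 between COL4A6 and COL4A5. The COL4A1/COL4A2 stretch was 78.0% G and C with 1 GC box and 1 CCAAT box, the COL4A4/COL4A3 stretch was 68.1% G and C with 2 GC boxes, and the COL4A6/COL4A5 stretch was 51.2% G and C with 2 CCAAT boxes. No TATA box was found in these windows. In the matching windows 3.4%, 6.1% and 10.7% of RefSeq promoters held one, in the order of the pairs. Of 35116 RefSeq promoters, 29.9% held a GC box and 18.9% a CCAAT box in the window that matches the first stretch, 35.5% held a GC box in that of the second, and 32.0% held a CCAAT box in that of the third. The matches do not overlap each other, and they describe letters, not bound factors.

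Collagen chain transcripts summed to 2068 and 2028 TPM in the WT libraries and to 2960, 2841, 2996 and 3009 TPM in the PDHB+/- libraries. The summed PDHB+/- level was 1.44 times that of WT, and the libraries of the groups did not overlap. Few chains made up most of this sum. COL6A1, COL6A2, COL4A1, COL5A2, COL4A2 and COL9A3 together held between 71.9% and 72.6% of it in WT and between 70.7% and 73.3% in PDHB+/-. Over all 6 libraries, 8 chains had a mean of 100 TPM or more, 10 lay between 10 and 100 TPM, 9 between 1 and 10 TPM and 17 under 1 TPM. Type VI chains took the largest share in every library, 37.0% of the sum as the WT mean and 41.4% as the PDHB+/- mean. Type IV chains took 25.7% in WT and 23.1% in PDHB+/-, and fibrillar chains took 19.7% and 21.6%.

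**Figure D1:**
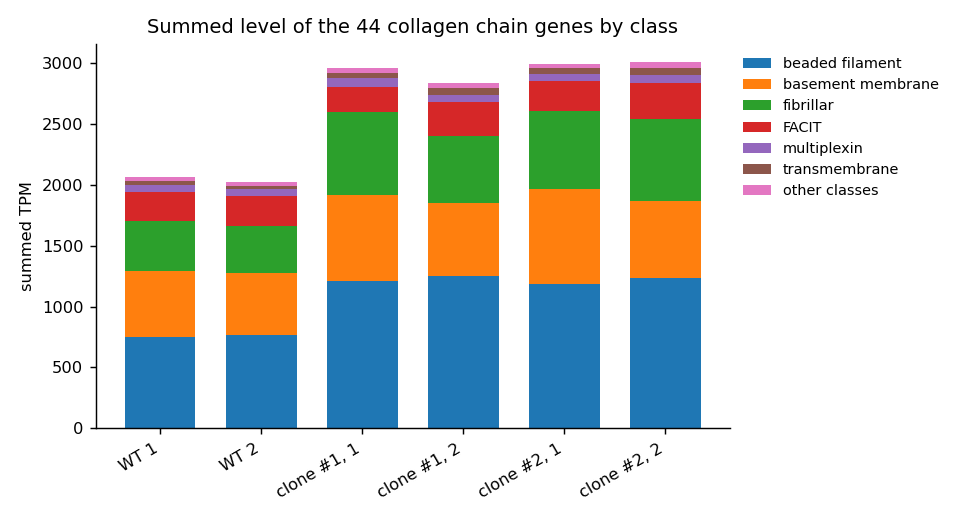
Summed TPM of the 44 collagen chain genes in each of the 6 libraries (bars, from 0), stacked by class. The 4 PDHB+/- bars reach 2841 to 3009 TPM and the WT bars 2028 and 2068 TPM, and the beaded filament (type VI) part is the largest in each.

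PDHB+/- cells were compared with WT by limma on log2(TPM + 1), where TPM is the unit of the deposited values, for the 17291 genes that averaged 1 TPM or more, and a gene was called when its p-value, adjusted over all of these genes, was under 0.05. Of the 44 chains, 27 passed this filter and 17 did not. Among the 27, 11 rose and 6 fell, which is 63.0% of them. Of all genes tested, 31.7% were called, 22.8% as higher and 8.86% as lower. The 4 PDHB+/- libraries all lay above both WT libraries for 12 of the 27 and all below for 6, against 54.9% of all genes tested on either side. COL11A1 and COL21A1 had WT means under 1 TPM and passed the filter only through the PDHB+/- libraries. The median log2 fold change was 0.21 over the 27 chains and 0.13 over all genes tested, so a small rise has to be read against that shift. Median-of-ratios scaling removes the shift. It called 15 of the chains, 9 higher and 6 lower, and 4938 of the 17291 genes, 2426 higher and 2512 lower. With it 49.1% of all calls were higher, against 72.0% for TPM as deposited. Leaving out either WT library leaves 1 in that group, and fewer of the chains and fewer of all genes were then called. Of the 17 calls, 7 were kept in all 15 alternative fits. They were COL13A1, COL9A2, COL2A1, COL5A1 and COL6A1, which were higher, and COL9A3 and COL1A1, which were lower. The other 10 lost their call in some of these fits, and none of the 17 changed sign.

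**Figure D2:**
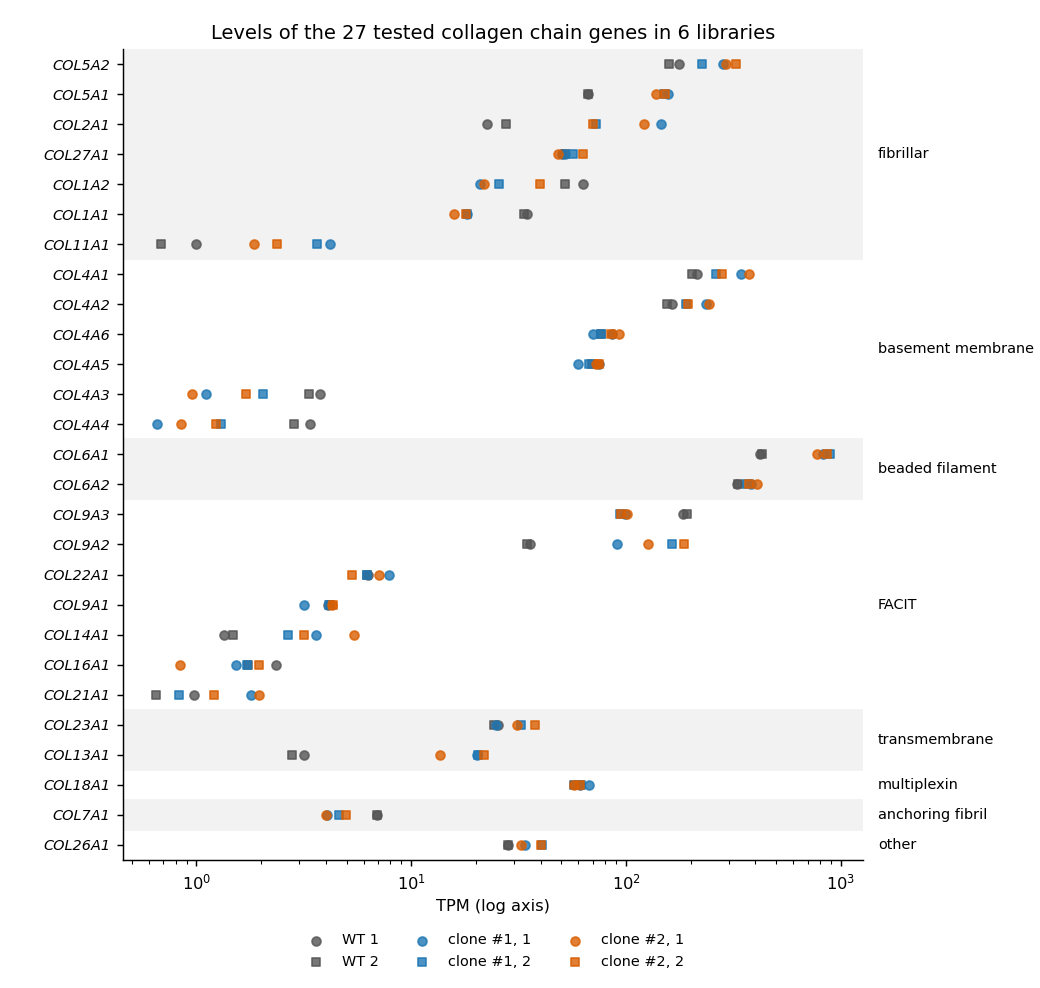
TPM (log axis) of the 27 tested collagen chain genes in WT (grey), clone #1 (blue) and clone #2 (orange), with replicate 1 as circles and replicate 2 as squares, ordered by class and level. COL6A1 has the highest level, up to 886 TPM, and COL13A1, COL2A1 and COL9A2 show the widest gaps between WT and PDHB+/-.

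**Figure D3:**
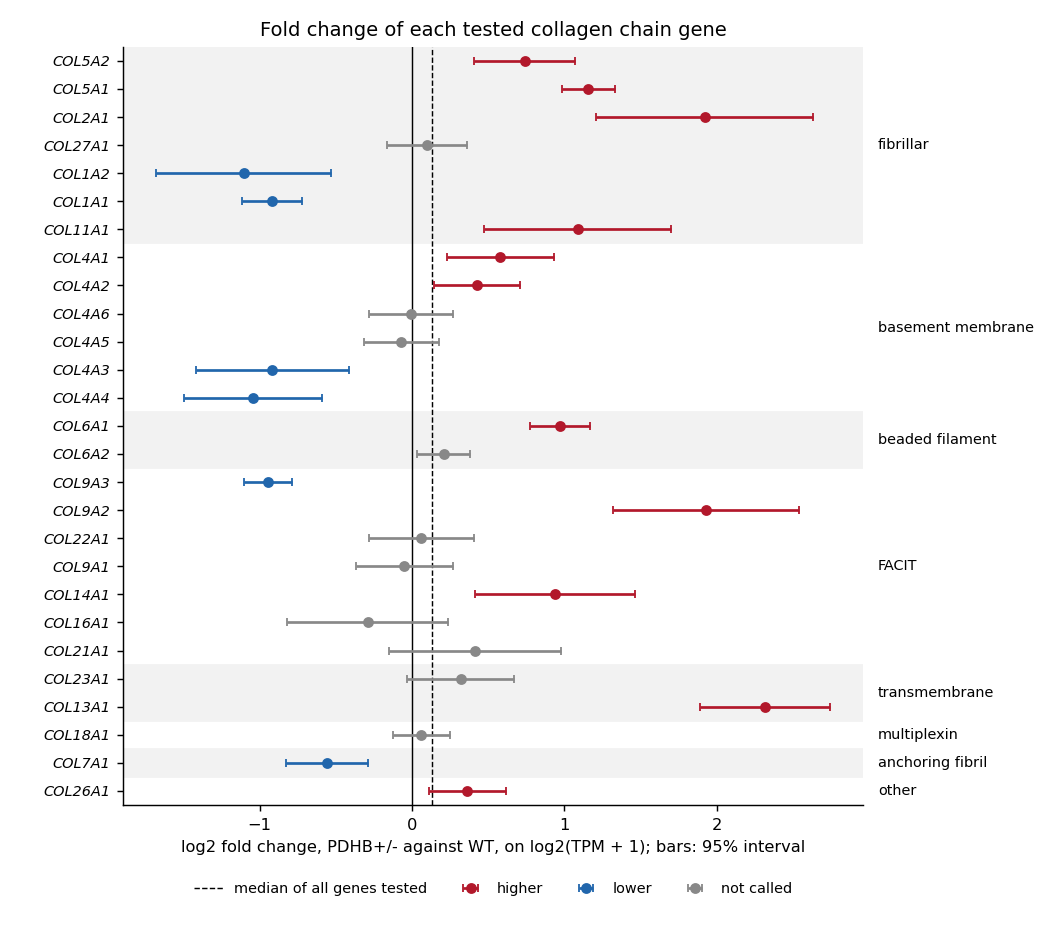
Log2 fold change of each tested chain in PDHB+/- against WT on the log2(TPM + 1) scale, with the 95% interval as bars, coloured by call. The dashed line is the median of all genes tested, 0.13. On this scale the largest rise among the tested chains is COL13A1 at 2.32 and the largest fall COL1A2 at -1.10, close to COL4A4 at -1.05.

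The fibrillar chains split. COL2A1, COL5A1, COL5A2 and COL11A1 rose, of which COL11A1 passed the filter only through PDHB+/-. COL1A1 and COL1A2 fell, COL27A1 was not called, and 4 chains were too low to test. COL2A1, the chain of type II collagen of cartilage and notochord, had 22.5 and 27.7 TPM in WT, 146 and 72.8 in clone #1 and 121 and 70.2 in clone #2. Its log2 fold change was 1.92 (SE 0.30, limma adjusted p = 0.00453). Replicate 1 lay above replicate 2 in both clones, yet the lowest PDHB+/- library was still above both WT libraries.

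COL5A1 and COL5A2 encode the chains of type V collagen, which sits inside type I fibres and helps to start them. COL5A1 had 66.5 and 66.4 TPM in WT, 158 and 150 in clone #1 and 138 and 152 in clone #2, a log2 fold change of 1.16 (SE 0.07, limma adjusted p = 0.000220). COL5A2 had 176 and 159 TPM in WT, 283 and 226 in clone #1 and 293 and 326 in clone #2, a log2 fold change of 0.74 (SE 0.14, limma adjusted p = 0.00869). Both chains were separated between the groups, with COL5A1 the tighter of the pair. COL11A1, a type XI chain that can take the place of a type V chain in mixed trimers, was low, with 0.995 and 0.685 TPM in WT, 4.16 and 3.62 in clone #1 and 1.85 and 2.38 in clone #2. Its log2 fold change was 1.09 (SE 0.26, limma adjusted p = 0.0195), and its WT values rested on 44 and 33 reads. The call of COL11A1 was lost with no filter (limma adjusted p = 0.0562). With 0.1 added to TPM in place of 1, its log2 fold change was 1.67.

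COL1A1 and COL1A2, the chains of type I collagen of bone, skin and tendon, moved the other way. COL1A1 had 34.4 and 33.5 TPM in WT, 18.2 and 18.2 in clone #1 and 15.7 and 18.0 in clone #2, so the PDHB+/- mean was 51.6% of the WT mean. The log2 fold change was -0.92 (SE 0.08, limma adjusted p = 0.000643). COL1A2 had 63.0 and 52.2 TPM in WT, 20.9 and 25.5 in clone #1 and 21.9 and 39.8 in clone #2, and a log2 fold change of -1.10 (SE 0.24, limma adjusted p = 0.0147). No PDHB+/- library reached the lower WT library for either chain, but clone #2 replicate 2 came nearest for COL1A2. The level of COL2A1 divided by that of COL1A1 was 0.655 and 0.827 in WT and lay between 3.91 and 8.01 in PDHB+/-.

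COL27A1, a fibrillar chain of cartilage, was not called, at 51.1 ± 1.36 TPM in WT (SD, n = 2) and 55.0 ± 6.46 in PDHB+/- (SD, n = 4), with a 95% interval of the log2 fold change from -0.16 to 0.36. COL3A1, the type III chain that goes with type I in soft tissues, was covered by at most 3 reads in any library and is at the limit of detection. It lies 19.2 kb from COL5A2 on chromosome 2, on the other strand, and COL5A2 carried 6224 to 13392 reads in the same libraries. COL5A3 had 2 and 1 reads in WT and 14, 29, 6 and 15 in PDHB+/-. COL24A1 had 1 to 7 reads and COL11A2 15 to 35. The reads of COL11A2 were divided by a counting length of 48019 bases, which is 6.52 times its exonic length of 7364 bases in GENCODE, so its TPM values cannot be set beside those of chains counted over their exonic length. The same ratio was 1.60 for COL18A1, 1.62 for COL3A1, 1.98 for COL25A1, 2.22 for COL6A6 and 2.68 for COL28A1, and between 0.293 and 1.31 for the other chains. The order of levels between chains therefore depends on these lengths, while a comparison of libraries for 1 chain does not.

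The type IV chains moved by pair. COL4A1 and COL4A2 rose, COL4A3 and COL4A4 fell, and COL4A5 and COL4A6 were not called. COL4A1 and COL4A2 form the trimer that nearly all basement membranes contain. COL4A1 had 214 and 202 TPM in WT, 343 and 262 in clone #1 and 374 and 278 in clone #2, with a log2 fold change of 0.58 (SE 0.15, limma adjusted p = 0.0253). COL4A2 had 163 and 156 TPM in WT, 235 and 190 in clone #1 and 244 and 195 in clone #2, with a log2 fold change of 0.43 (SE 0.12, limma adjusted p = 0.0334). The replicate 1 libraries of both clones were the higher ones for both genes. Under median-of-ratios scaling the adjusted p was 0.0407 for COL4A1 and 0.0682 for COL4A2. The ratio of COL4A1 to COL4A2 was 1.30 to 1.31 in WT and 1.38 to 1.53 in PDHB+/-.

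COL4A3 and COL4A4 join COL4A5 in the trimer of the mature kidney filter, lung and inner ear. COL4A3 had 3.77 and 3.34 TPM in WT, 1.11 and 2.04 in clone #1 and 0.949 and 1.71 in clone #2, a log2 fold change of -0.92 (SE 0.21, limma adjusted p = 0.0175). COL4A4 had 3.39 and 2.85 TPM in WT, 0.652 and 1.30 in clone #1 and 0.847 and 1.24 in clone #2, a log2 fold change of -1.05 (SE 0.19, limma adjusted p = 0.00766). The order of the largest falls depended on the pseudocount, since with 0.1 the log2 fold change was -1.58 for COL4A4 and -1.13 for COL1A2. Both genes were low and rested on 47 to 247 reads a library, and here replicate 1 of each clone was the lower one. GENCODE assigns 6.8% of the exonic bases of COL4A3 to another gene as well, MFF-DT.

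COL4A5 and COL4A6, the X-linked pair, had levels between those of the other pairs. COL4A5 had 74.6 and 69.1 TPM in WT, 59.6 and 67.0 in clone #1 and 72.8 and 75.2 in clone #2. COL4A6 had 85.6 and 76.8 TPM in WT, 70.3 and 76.4 in clone #1 and 92.5 and 85.3 in clone #2. The groups overlapped for both genes, and the 95% interval of the log2 fold change was -0.31 to 0.17 for COL4A5 and -0.28 to 0.27 for COL4A6. The level of COL4A1 divided by that of COL4A5 was 2.87 and 2.92 in WT and 3.70 to 5.76 in PDHB+/-. This ratio was not tested.

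**Figure D4:**
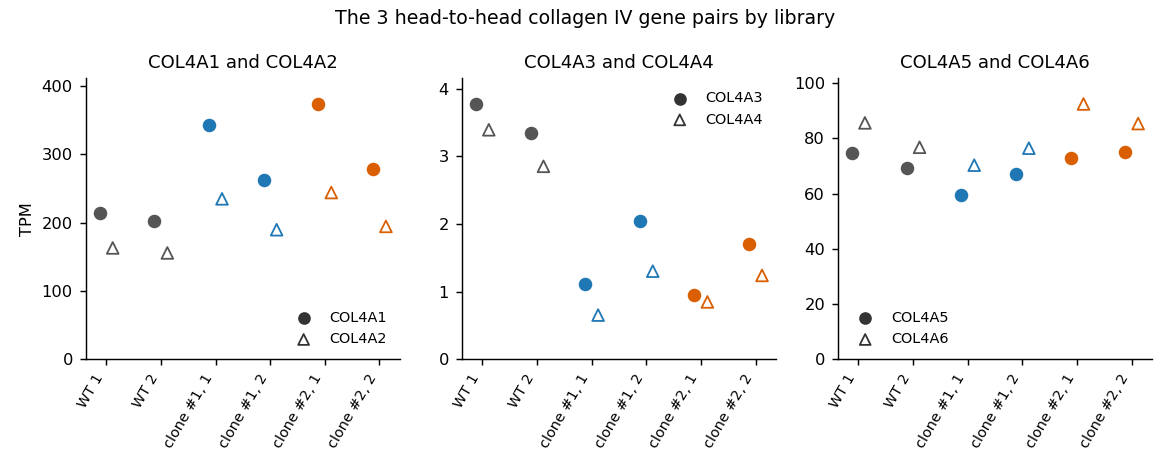
TPM (axes from 0) of the 3 head-to-head type IV gene pairs in each library, filled circles for the odd-numbered chain and open triangles for the even-numbered one. COL4A1 and COL4A2 are higher in all 4 PDHB+/- libraries, COL4A3 and COL4A4 are lower in all 4, and COL4A5 and COL4A6 overlap.

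Type VI collagen is built from COL6A1, COL6A2 and a longer chain, most often COL6A3. COL6A1 was the most abundant chain gene, with 422 and 430 TPM in WT, 827 and 886 in clone #1 and 776 and 861 in clone #2. It rose to 1.97 times the WT mean, a log2 fold change of 0.97 (SE 0.08, limma adjusted p = 0.000490). COL6A2, which lies 93.1 kb downstream on the same strand of chromosome 21, had 328 and 333 TPM in WT, 381 and 366 in clone #1 and 406 and 374 in clone #2. All 4 PDHB+/- libraries exceeded WT, but the gene was not called (log2 fold change 0.21, SE 0.07, limma adjusted p = 0.0676). The 95% interval of the log2 fold change was 0.78 to 1.17 for COL6A1 and 0.04 to 0.38 for COL6A2. Under median-of-ratios scaling the log2 fold change was 0.83 for COL6A1 (limma adjusted p = 0.0014) and 0.06 for COL6A2 (limma adjusted p = 0.433). Consequently the ratio of the chains, 1.28 and 1.29 in WT, was 1.91 to 2.42 in PDHB+/-, with no test of the ratio itself.

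The longer chains of type VI were hardly detected. COL6A3 had 0 and 3 reads in WT and 3, 8, 3 and 3 in PDHB+/-, while COL6A1 had 8328 to 21407 reads. COL6A5 had 1 and 1 reads in WT and 5 to 7 in PDHB+/-, and COL6A6 had 3 and 8 reads in WT and 11 to 17 in PDHB+/-. The abundance of COL6A1 and COL6A2 at the RNA level thus stood beside a near absence of reads for each of the 3 chains that could complete a trimer.

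Of 10 FACIT chains, 7 were tested, and COL9A2 and COL14A1 rose while COL9A3 fell. Type IX collagen, found with type II fibres in cartilage, takes its chains from COL9A1, COL9A2 and COL9A3, and these genes did not move together. COL9A2 had 35.8 and 34.5 TPM in WT, 90.6 and 164 in clone #1 and 127 and 186 in clone #2, a log2 fold change of 1.93 (SE 0.26, limma adjusted p = 0.00247). COL9A3 had 183 and 193 TPM in WT, 98.6 and 93.8 in clone #1 and 101 and 94.9 in clone #2, a log2 fold change of -0.95 (SE 0.07, limma adjusted p = 0.000309). COL9A1 had 4.14 ± 0.0554 TPM in WT (SD, n = 2) and 3.99 ± 0.548 in PDHB+/- (SD, n = 4) and was not called, with a 95% interval of the log2 fold change from -0.37 to 0.27. COL9A3 was thus above COL9A2 in both WT libraries, with a COL9A2 to COL9A3 ratio of 0.195 and 0.179, and the ratio was 0.918, 1.75, 1.25 and 1.96 in the PDHB+/- libraries. GENCODE assigns 3.2% of the exonic bases of COL9A3 to TCFL5 as well.

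COL14A1, a FACIT chain of type I fibres in skin and tendon, had 1.34 and 1.47 TPM in WT, 3.61 and 2.68 in clone #1 and 5.43 and 3.18 in clone #2. Its log2 fold change was 0.94 (SE 0.22, limma adjusted p = 0.0192). COL16A1, COL21A1 and COL22A1 overlapped between the groups, with log2 fold changes of -0.29, 0.41 and 0.06 and limma adjusted p of 0.356, 0.226 and 0.778. The remaining FACIT chains were not tested. COL12A1 had 1 and 5 reads in WT and 18 to 32 in PDHB+/-, COL19A1 had 5 to 21 reads over all libraries, and COL20A1 had 0 to 4.

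**Figure D5:**
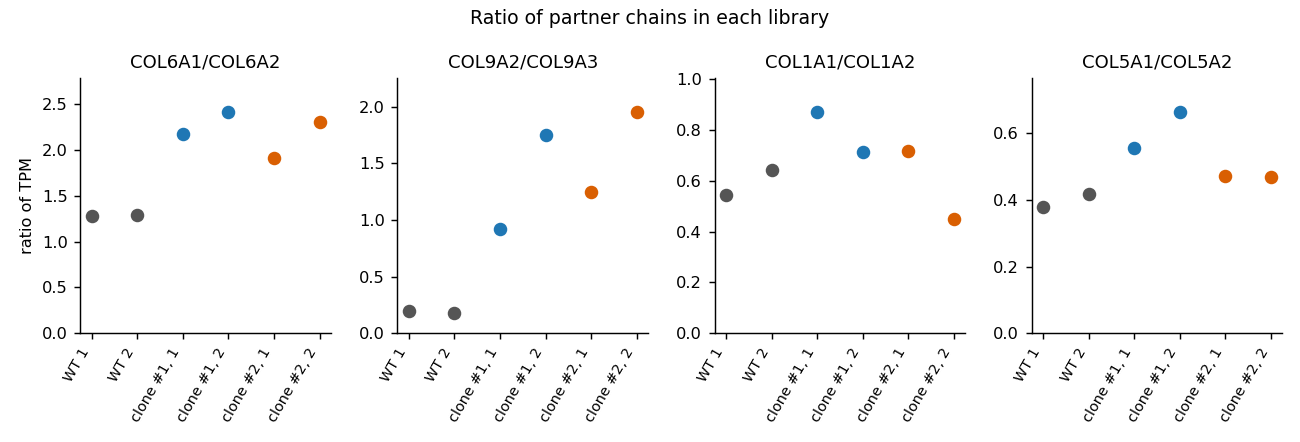
Ratio of the TPM values of chains that share a trimer, in each library (axes from 0, WT grey, clone #1 blue, clone #2 orange). COL6A1/COL6A2 and COL9A2/COL9A3 separate WT from PDHB+/-, COL5A1/COL5A2 does so by less, with 0.379 and 0.418 in WT and 0.468 to 0.665 in PDHB+/-, and COL1A1/COL1A2 overlaps.

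COL13A1, a transmembrane collagen of cell junctions and of the neuromuscular synapse, showed the largest rise among the 27 tested chains. COL5A3 and COL12A1 had a larger ratio of means but 1 to 5 reads in WT, and they were not tested. It had 3.16 and 2.78 TPM in WT, 20.2 and 20.5 in clone #1 and 13.7 and 21.8 in clone #2, which rested on 50 and 48 reads in WT and 235 to 397 in PDHB+/-. Its mean was 6.41 times that of WT, with a log2 fold change of 2.32 (SE 0.18, limma adjusted p = 0.000384). COL23A1, another transmembrane chain, had 24.8 ± 0.700 TPM in WT (SD, n = 2) and 31.5 ± 5.33 in PDHB+/- (SD, n = 4) and was not called (limma adjusted p = 0.142). COL17A1, the hemidesmosome chain of skin, had 1 to 5 reads and COL25A1 23 to 79 reads, and both were under the filter.

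In the smaller classes, COL7A1 fell and COL26A1 rose. COL7A1 forms the anchoring fibrils that tie epithelial basement membranes to the tissue beneath, and had 6.93 and 6.94 TPM in WT, 4.04 and 4.62 in clone #1 and 4.00 and 4.95 in clone #2 (log2 fold change -0.56, SE 0.11, limma adjusted p = 0.0110). COL26A1 had 28.2 and 28.2 TPM in WT, 34.0 and 40.5 in clone #1 and 32.5 and 40.1 in clone #2 (log2 fold change 0.36, SE 0.11, limma adjusted p = 0.0393). The call of COL26A1 was the least firm of the 17. It was lost under 10 of the 15 alternative settings, including median-of-ratios scaling, where its adjusted p was 0.224. COL18A1, a multiplexin of basement membranes whose end fragment is endostatin, had 59.1 ± 2.33 TPM in WT (SD, n = 2) and 61.8 ± 3.98 in PDHB+/- (SD, n = 4), and its 95% interval was -0.13 to 0.25. Its reads were divided by 13527 bases, against 8464 exonic bases in GENCODE, so its level is low beside that of chains counted over their exonic length. GENCODE assigns 18.5% of the exonic bases of COL18A1 to SLC19A1 as well. COL15A1, the other multiplexin, had 3 to 10 reads, the short chains COL8A1, COL8A2 and COL10A1 had 0 to 12, and COL28A1 had 1 to 8.

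For the 17 chains under the filter, 10 had at most 10 reads in every library, and the most was 79 reads, for COL25A1. Without the filter none of the 17 was called. The lowest adjusted p among them was 0.0711, for COL12A1, with an unadjusted p of 0.0114 by limma.

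Each clone was then compared with WT in a fit of 3 groups, in which both comparisons share the same WT libraries. Against WT, 12 of the 27 chains were called in clone #1, 7 higher and 5 lower, where 19.9% of all genes tested were called, 13.4% higher and 6.44% lower. In clone #2, 13 were called, 8 higher and 5 lower, where 20.0% of all genes were called, 14.5% higher and 5.51% lower. Of the 17 chains called with the clones together, 3 were called in neither clone alone. They were COL4A1 (limma adjusted p = 0.0943 in clone #1 and 0.0606 in clone #2), COL4A2 (0.109 and 0.0853) and COL26A1 (0.0930 and 0.120). COL1A2 passed in clone #1 (limma adjusted p = 0.0277) and missed the threshold in clone #2 (0.0612). COL4A3 and COL14A1 passed in clone #2 (limma adjusted p = 0.0465 and 0.0302) and missed it in clone #1 (0.0687 and 0.0748). For each of these 3 chains the clones themselves were compared with an adjusted p of 1.00. With either WT library or either of the clone's own libraries left out, fewer chains and fewer of all genes were called in each clone.

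No chain was called between clone #2 and clone #1 by limma (0 of 27 called, where 0.0174% of all genes were, 3 genes). At an unadjusted p under 0.05 there were 2 chains, COL11A1 (log2 difference of clone #2 minus clone #1 -0.65, SE 0.19) and COL4A6 (0.27, SE 0.10), each with an adjusted p of 1.00, and limma voom on the inferred reads called 0. COL4A5 had a difference of 0.22 (SE 0.09) between the clones. The replicates within a clone differed for several chains. Replicate 1 was above replicate 2 in both clones for 8 of the 27 tested chains, among them COL2A1 with ratios of 2.00 and 1.72 and COL4A1 with 1.31 and 1.34, and below it in both clones for 13, among them COL9A2 with 0.551 and 0.682 and COL4A3 with 0.542 and 0.555. The labels do not say what a replicate number stands for.

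Genes that make, process and bind collagen were examined next, counted as called higher, called lower and tested. In these lists and the marker lists, MIA2, ADAMTS3, MMP9, TBXT, HAND1 and TWIST1 had WT means under 1 TPM and passed the filter only through the PDHB+/- libraries, so counts and medians that hold them lean towards a rise. Each count stands against 31.7% of all genes tested called, 22.8% higher and 8.86% lower, and nothing particular to a list is read from these small counts. Of the prolyl and lysyl modification genes, which stabilise the helix in the endoplasmic reticulum, 3 rose and 2 fell among 13 tested, near the 31.7% called over all genes. P4HA1, a prolyl 4-hydroxylase subunit, had 57.0 ± 6.18 TPM in WT and 81.9 ± 11.7 in PDHB+/-, with a log2 fold change of 0.51 (limma adjusted p = 0.0315). P3H2, a prolyl 3-hydroxylase that acts on type IV collagen, had a log2 fold change of 0.42 and PLOD2, the lysyl hydroxylase of the collagen ends, one of -0.53. P3H3, a relative of P3H2, had a log2 fold change of -0.53 (limma adjusted p = 0.0160). P4HB, the other prolyl 4-hydroxylase subunit and the most abundant gene of the list, had 641 ± 25.6 TPM in WT and 835 ± 148 in PDHB+/- and was not called (log2 fold change 0.37, limma adjusted p = 0.120). The median over this list was 0.14, against 0.13 over all genes tested. Of the folding and secretion genes, 3 rose and 2 fell among 12 tested, with a median of 0.09. SERPINH1, the collagen chaperone HSP47, had 405 ± 2.40 TPM in WT and 538 ± 72.0 in PDHB+/- (log2 fold change 0.40, limma adjusted p = 0.0484), and CREB3L1, a transcription factor of the secretory pathway, fell from 9.64 ± 0.427 to 2.27 ± 0.775 TPM (log2 fold change -1.73, limma adjusted p = 0.00163). TMEM38B, an ion channel of the endoplasmic reticulum, had a log2 fold change of 0.40 (limma adjusted p = 0.0158). SPARC, a matrix protein that binds collagen, was the most abundant of this list, with 655 ± 4.25 TPM in WT and 912 ± 69.5 in PDHB+/- (log2 fold change 0.47, limma adjusted p = 0.0101). Here and for the genes below, n is 2 for WT and 4 for PDHB+/- and the errors are SD.

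All 5 tested genes for removal of propeptides were called, 4 higher and 1 lower, with a median of 0.82, where 22.8% of all genes were higher and 8.86% lower, and 6 of the list were not tested. BMP1, the C-proteinase, rose from 8.66 ± 0.410 to 16.1 ± 1.36 TPM (log2 fold change 0.82, limma adjusted p = 0.00163), and ADAMTS3, an N-proteinase that passed the filter only through PDHB+/-, had 0.982 TPM in WT and 3.05 in PDHB+/- (log2 fold change 1.03). PCOLCE, which enhances BMP1, fell from 13.7 ± 0.151 to 3.35 ± 0.817 TPM (log2 fold change -1.77, limma adjusted p = 0.000742), while its relative PCOLCE2 rose from 8.74 ± 0.770 to 17.0 ± 3.37 TPM (log2 fold change 0.87, limma adjusted p = 0.0103). FURIN, a proprotein convertase and the most abundant of the list, rose from 58.2 ± 6.01 to 89.1 ± 6.70 TPM (log2 fold change 0.61, limma adjusted p = 0.00463). Of the cross-linking genes, 3 rose and 0 fell among 6 tested, with a median of 0.27, beside the same 22.8% and 8.86% of all genes. They were LOXL1, LOXL2 and LOXL4, with log2 fold changes of 0.33, 1.01 and 0.96, and LOX itself was at 4.61 ± 0.323 TPM in WT and 4.42 ± 0.332 in PDHB+/- with no call. PXDN, which cross-links type IV collagen, had 160 ± 10.7 TPM in WT and 186 ± 19.3 in PDHB+/- (log2 fold change 0.21, limma adjusted p = 0.167).

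Of the genes for collagen breakdown, 4 rose and 2 fell among 10 tested, with a median of 0.12, beside 22.8% higher and 8.86% lower over all genes. MMP9, 1 of the 4, had 0.395 TPM in WT and 1.68 in PDHB+/- and passed the filter only through the latter. MMP2, a gelatinase that also cuts type IV collagen, rose from 10.4 ± 0.550 to 33.1 ± 4.01 TPM (log2 fold change 1.58, limma adjusted p = 0.000337). TIMP1, an inhibitor of these enzymes, fell from 66.2 ± 6.73 to 35.6 ± 5.66 TPM (log2 fold change -0.89, limma adjusted p = 0.00468). MMP15, another membrane enzyme of this family, had a log2 fold change of 0.51 (limma adjusted p = 0.0275). MMP14, the membrane enzyme that activates MMP2, was the most abundant, at 228 ± 2.02 TPM in WT and 263 ± 15.4 in PDHB+/-, and was not called (limma adjusted p = 0.0861). Among the collagen receptors, ITGB1, the shared beta chain of the collagen-binding integrins, was the only gene tested and rose from 173 ± 9.53 to 267 ± 18.8 TPM (log2 fold change 0.62, limma adjusted p = 0.00289). Its partner alpha chains ITGA1, ITGA2, ITGA10 and ITGA11 all had means under 1 TPM over the 6 libraries, and DDR1 was not analysed here.

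The labelled cell type was checked against marker lists, and the markers of other cells that could hold collagen RNA are given beside the results. In this bulk RNA, fewer cells of a type and less RNA per cell cannot be told apart. The 8 DE markers summed to 15810 to 16020 TPM in WT and 11000 to 15060 in PDHB+/-, with CER1 the most abundant. Of these markers SOX17 and EOMES rose, HHEX fell and 5 were not called. Among the 5, CXCR4 and CER1 lay lower in all 4 PDHB+/- libraries, with log2 fold changes of -0.86 and -0.48 (limma adjusted p = 0.0562 and 0.0948). The log2 fold change was -0.11 for FOXA2, 0.10 for GATA4 and 0.20 for GATA6, and GATA6 lay higher in all 4. Of the 5 embryonic stem cell markers, 3 rose and 1 fell, and the sum was 151 to 154 TPM in WT and 183 to 197 in PDHB+/-, most of it DPPA4. By group mean, POU5F1 rose from 2.21 to 7.78 TPM, NANOG from 6.69 to 20.6 and DPPA4 from 126 to 155. ZFP42 fell from 16.2 to 2.30 TPM, and SOX2 was not called. Of the 8 mesoderm markers, 4 rose of 5 tested, with a sum of 1044 to 1075 TPM in WT and 1016 to 1142 in PDHB+/-, nearly all of it MIXL1. Of those that rose, HAND1 (0.115 TPM in WT and 3.39 in PDHB+/-) and TBXT (0.677 and 2.60) passed the filter only through PDHB+/-. PDGFRA had 8.38 and 19.2 TPM. Among 8 markers of fibroblasts and mesenchyme, 1 was called higher, TWIST1, and 1 lower, THY1, of 3 tested, and TWIST1, with 0.351 TPM in WT and 3.36 in PDHB+/-, passed the filter only through PDHB+/-. Their sum was 5.97 to 6.10 TPM in WT and 6.15 to 10.9 in PDHB+/-, and PRRX1, DCN and ACTA2 had at most 3 reads in every library. For visceral and parietal endoderm, which makes much type IV collagen in the embryo, none of 5 markers was called of 1 tested, the sum was 8.868 to 11.96 TPM in WT and 11.02 to 24.65 in PDHB+/-, and AFP and TTR had at most 3 reads. The 4 neuroectoderm markers summed to 528 to 534 TPM in WT and 462 to 585 in PDHB+/-, and of 3 tested NES rose (log2 fold change 0.83). PAX6 and OTX2 lay below both WT libraries in all 4 PDHB+/- libraries and were not called, with log2 fold changes of -0.62 and -0.31 (limma adjusted p = 0.0682 and 0.0859). Among 4 endothelial markers TEK rose and VWF fell, the sum was 41.3 to 46.5 TPM in WT and 34.4 to 44.6 in PDHB+/-, and PECAM1 had at most 3 reads. The part of these markers' cells in the collagen values was not tested.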

How the data were processed

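RNA-seq libraries of HUES8 cells after DE differentiation were analysed, 2 WT and 2 of each PDHB+/- clone. The authors aligned reads to hg38 with bowtie2 (2.3.5.1 per the labels; the study's methods name another version), kept each read at 1 location, counted reads with featureCounts and deposited TPM values. The table's 1 unnamed line, which repeats the total, was dropped, and 0 columns were unused. Reads per gene were inferred from the TPM values, since each is a whole number of reads over a counting length times 1 constant, and this was tested on simulated data. All 34899 genes above 0 came out whole, but lengths were fitted too, so whole reads alone do not show each count to be right.

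Values were analysed as log2(TPM + 1) with limma 3.58.1 (lmFit, eBayes with trend; R 4.3.3), with Benjamini-Hochberg adjustment over the 17291 genes that averaged 1 TPM or more. A fold change on this scale understates low genes. The comparisons were PDHB+/- against WT in 2 groups, and each clone in 3 groups. DESeq2, which the authors name, takes counts and was not used here. Named in full were members called in PDHB+/- against WT or between clones and the 6 with the highest mean; of each processing list at most 4 called genes with large changes and the most abundant one. Some lists give fewer. Members, gene lists and tests were chosen with earlier results of these data known. Settings tried besides these were 0.1 as pseudocount, a filter at 5 TPM or none, scaling by median-of-ratios or by quantiles, eBayes without its trend, a term for the replicate number, limma voom on the inferred reads, 3 groups, a log2 fold change of at least 1, and leaving out each library. Annotation was GENCODE release 44 and RefSeq (GRCh38.p14), and all 44 symbols matched. The rest was done in Python 3.11.15 (pandas 2.3.3, numpy 2.4.6), with figures by matplotlib 3.10.9.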

Additional observations from a re-analysis of the deposited data

Results flagged for a closer look

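Among the 4 PDHB+/- libraries, the gap from the farthest library to its nearest neighbour, divided by the range, was compared with Dixon's 95% critical value for 46 values (tested chains, class sums and chain ratios, on the log2 scale for levels), and 3 exceeded it. Chance gives about 1 in 20. COL1A1 had 15.7 TPM in clone #2 replicate 1 against 18.0 to 18.2 in the others (0.907). COL9A1 had 3.17 TPM in clone #1 replicate 1 against 4.14 to 4.34 (0.846). COL13A1 had 13.7 TPM in clone #2 replicate 1 against 20.2 to 21.8 (0.836). COL1A1 and COL13A1 remained called without that library. No tested chain had both libraries of 1 clone above both WT libraries and both libraries of the other clone below them. COL4A5, COL4A6, COL9A1 and COL22A1 had fitted changes against WT of opposite sign in the clones, and none of these was called.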

How the results depend on the processing

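The 27 tested chains gave 398 values in 15 alternative fits. Of these, 345 kept their sign and their side of the threshold, 38 lost a call, 1 gained one and 14 changed sign, and no called chain changed sign. The sign changes were in 5 uncalled chains. With median-of-ratios scaling, quantile normalization and limma voom on the inferred reads, the log2 fold changes were -0.066, -0.040 and -0.054 for COL22A1, -0.045, -0.038 and -0.018 for COL27A1, and -0.083, -0.077 and -0.056 for COL18A1. With 1 library left out, they ranged from -0.086 to 0.033 for COL9A1, from -0.018 to 0.15 for COL22A1 and from -0.084 to 0.071 for COL4A6. The cause was not tested.

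The number of chains called in PDHB+/- against WT, 17, ranged from 7 to 16 with 1 library left out, and 7 remained with a log2 fold change of at least 1. For all genes, 5475 calls ranged from 1654 to 5200 and 949 reached that fold change. With 1 WT library left, that library is assumed to vary like the others. In clone #1 the 12 calls ranged from 3 to 13 and were 6 with no filter. In clone #2 the 13 calls ranged from 3 to 11 and were 7 with no filter. Without a filter, 34899 genes shared the adjustment, and 12 chains were called in PDHB+/- against WT, 6 higher and 6 lower. COL11A1, COL26A1, COL14A1, COL4A1 and COL4A2, all higher in PDHB+/-, lost their calls. Of all genes, 4497 were then called, 2988 higher and 1509 lower. In the clones, 1948 of all genes were called without a filter in clone #1 and 1793 in clone #2, against 3433 and 3460 with it. Leaving out replicate 1 or 2 of the other clone gave 3407 and 3417 in clone #1, and 3251 and 3354 in clone #2. Fits with 1 WT library left called the fewest chains and the fewest of all genes in each clone.

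The labels do not say that a replicate number marks a shared culture or day. Deviations of same-numbered libraries correlated at -0.01 between WT and each clone and at 0.35 between the clones, so the numbers tie the clones' libraries to each other in part and not to those of WT. With the replicate block, 17 chains were called in PDHB+/-, 15 in clone #1, 16 in clone #2 and 0 between the clones. Without it the counts were 17, 12, 13 and 0. Calls over all genes rose as well. With the block they were 6266 in PDHB+/-, 4433 in clone #1 and 4497 in clone #2, against 5475, 3433 and 3460. The 17 untested chains had 0 to 79 reads, but the filter was on TPM, so COL25A1 with 23 to 79 reads was under it and COL21A1 with 16 to 48 was not.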
